A study of Mus musculus with 18 samples.

Results

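Melanocytes of mouse back skin were examined as 524 cells among 47251 kept cells (1.11%), taken from 10 single-cell mRNA libraries of skin that had been stretched from below or had only been operated on. A kept cell had at least 200 genes, at least 500 unique molecular identifiers (UMIs, each counting 1 captured mRNA molecule) and at most 10% mitochondrial UMIs. A melanocyte was a kept cell with at least 5 UMIs of Pmel, Dct, Mlana and Tyrp1 together, from at least 2 of these genes. It also had no UMI of the leukocyte gene Ptprc, less than 0.3% of its UMIs from the basal keratins Krt5 and Krt14, and less than 1% from the collagen genes Col1a1 and Col1a2. Those 9 genes chose the cells, so their values below are a description without a test.

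Every mouse was operated on through a cut in the back skin close to its tail. In the expanded arm a hydrogel expander, which stretches the overlying skin, was placed near the neck; control mice had the surgery and no expander. Genotype, strain and age are not given in the sources used here. Skin was taken on day 1, 2 or 4, digested, and sorted for living cells by exclusion of the dye DAPI. Each library pooled the mice of 1 arm in 1 sequencing round: day 1 rounds 1 and 2, day 2 rounds 1 and 2, and day 4 round 1, in both arms. Libraries that share day and round form 5 pairs. The 8 further samples describe hashing antibodies, whose DNA barcodes mark the cells of each mouse. The question was how skin cells respond to stretch in the first days.

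Melanocytes are pigment cells derived from the neural crest, as are the Schwann cells that ensheathe nerves. In mouse back skin they lie mainly in hair follicles, where stem cells in the bulge supply the pigment-making cells of the bulb. The transcription factor MITF, together with SOX10 and PAX3, switches on the genes of the melanosome, the organelle in which tyrosinase and its relatives make melanin. KIT and the endothelin receptor EDNRB receive the signals from neighbouring cells that keep melanocytes alive and direct their migration.

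Melanocytes numbered 5, 59, 30, 137 and 57 in the control libraries and 13, 86, 18, 70 and 49 in the expanded libraries, in the order day 1 round 1, day 1 round 2, day 2 round 1, day 2 round 2 and day 4. Of 586 cells that met the marker condition, 31 were left out for Ptprc, 24 for keratins and 7 for collagens. The marker sum ran from 5 to 1029 UMIs with a median of 30. Just inside the limit, 54 members had 5 to 9 marker UMIs; just outside, 11 cells had 3 or 4. The 8 cells with keratin shares from the limit up to 2 times the limit were left out, and 4 members lay between it and its midpoint to 0. The median melanocyte had 3990 UMIs, the median other kept cell 8328. No member barcode occurred in more than 1 library, whereas each pair of libraries shared 1 to 23 barcodes of any kind.

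One control melanocyte of day 4 stood apart. It held 239056 UMIs from 9378 genes and gave 38.2% of all melanocyte UMIs of its library, while the next largest member held 23437. Its UMIs included 459 of Krt14 and 95 of Pmel. Ribosomal protein genes made 36.0% of its total against 18.4% in the other members. It met every condition of the rule and was kept, and results that it moves are given with and without it. In the 8 hashed libraries 243 of 506 melanocytes could be given to a mouse, and each of the 28 hashed mice had at least 1. By a wide rule 131 members carried more than 1 hashtag, 3 of 59, 3 of 30, 25 of 137 and 11 of 57 in the hashed control libraries and 35 of 86, 3 of 18, 37 of 70 and 14 of 49 in the hashed expanded ones, and the doublet caller Scrublet marked 0 members. Scrublet marked only 0.0589% to 3.0% of kept cells by library, too few in some libraries to be relied on. The labels give no finer account of which mice entered a library, so p-values measure the spread between pools.

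The cells carried the wider melanocyte programme. Tyr, which encodes tyrosinase, stood at 285 CPM (counts scaled to the same total of UMIs in each group) in all melanocytes and 0.223 CPM in all other kept cells. Kit stood at 485 against 11.9 CPM, Pax3 at 520 against 2.29 CPM and Sox10 at 100.3 against 1.95 CPM. Mitf, which other skin cells also use, stood at 419 against 29.8 CPM. Sox10 was above the other cells in 9 of 10 libraries. In the Schwann comparison set described below, Sox10 was higher than in melanocytes, at 173 CPM. Pax3 stood at 112 CPM there and Fabp7 at 63.3 CPM, against 99.3 CPM of Fabp7 in melanocytes. Mitf stood at 25.1 CPM in that set, Kit at 8.70 CPM and Tyr at 0.264 CPM. A UMI of Mitf or of Kit was found in 68.3% of members each, of Tyr in 42.7% and of Pax3 in 80.0%. Among the 20 genes with the greatest fold over other cells were also Ptgds (prostaglandin D2 synthase), at 1352 against 1.08 CPM, Syt4 (a synaptotagmin), Mcoln3 (a lysosomal cation channel), Alx1, Fabp7 and Mlph, each above the other cells in 10 of 10 libraries. Because the cells were chosen by correlated pigment genes, these contrasts carry no test.

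Of the 4 genes of the rule, Dct (dopachrome tautomerase) gave most marker UMIs in every library, from 46.6% to 79.6%. Pmel, which forms the fibrils inside melanosomes, gave from 5.27% to 25.0%, Tyrp1 (a tyrosinase relative) from 5.56% to 14.99% and Mlana from 3.15% to 13.8%. All 4 genes were present together in 187 members, and 153 members had only 2 of them. Pmel stood at 6241, 1059.7, 1206 and 2111 CPM in the control libraries and 1598, 1121, 359, 585 and 1749 CPM in the expanded libraries, in the order of day and round with day 1 round 1 of the control arm left out. The groups overlapped, and control day 1 round 2 was far above the rest. Mlana likewise stood at 3491, 983, 397 and 765 CPM in the control libraries and 419, 667, 359, 391 and 465 CPM in the expanded libraries. Dct stood at 8293 ± 3655 CPM (SD, n = 4) against 6908 ± 1987 CPM (SD, n = 5) and Tyrp1 at 1709.6 ± 1410.1 CPM (SD, n = 4) against 1115 ± 308 CPM (SD, n = 5).

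Melanocytes made a larger share of kept cells in the expanded library of 4 of 5 pairs, but the difference lay within the spread between libraries. The shares were 0.0858%, 0.710%, 1.37%, 2.34% and 0.759% in control and 0.440%, 1.46%, 0.531%, 3.63% and 1.43% in expanded libraries. Both arms spanned a wide and overlapping range, with day 2 round 2 highest in each. The means were 1.05 ± 0.853% and 1.5 ± 1.29% (SD, n = 5 each). An exact two-sided permutation test gave p = 0.571, which was also 0.571 after adjustment over 3 shares. Of cells without Ptprc, which leaves out leukocytes, melanocytes made 1.51 ± 1.29% and 2.56 ± 2.29% (SD, n = 5 each). The same exact test gave p = 0.452, or 0.571 after adjustment. Again 4 of 5 pairs were higher in expanded skin, and the groups overlapped.

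Relative to another sparse neural crest lineage no difference beyond the spread was found either. A Schwann comparison set of 966 cells was chosen in the same manner from marker genes of Schwann cells. There were 0.50, 0.634, 1.2, 0.830 and 0.270 melanocytes per Schwann cell in control libraries and 0.813, 0.597, 0.40, 0.693 and 0.314 in expanded libraries. Expanded libraries were higher in 2 of 5 pairs, and the groups overlapped (0.687 ± 0.352 against 0.563 ± 0.205, SD, n = 5 each). The exact permutation p was 0.524, or 0.571 after adjustment, and the mean difference of -0.124 turned to 0.0282 with doublets removed and to 0.00467 without control day 2 round 1. With 5 libraries an arm the smallest p the test allows is 0.00794. Shares of sorted cells depend on how well each cell type survives digestion, which was not tested.

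**Figure D1:**
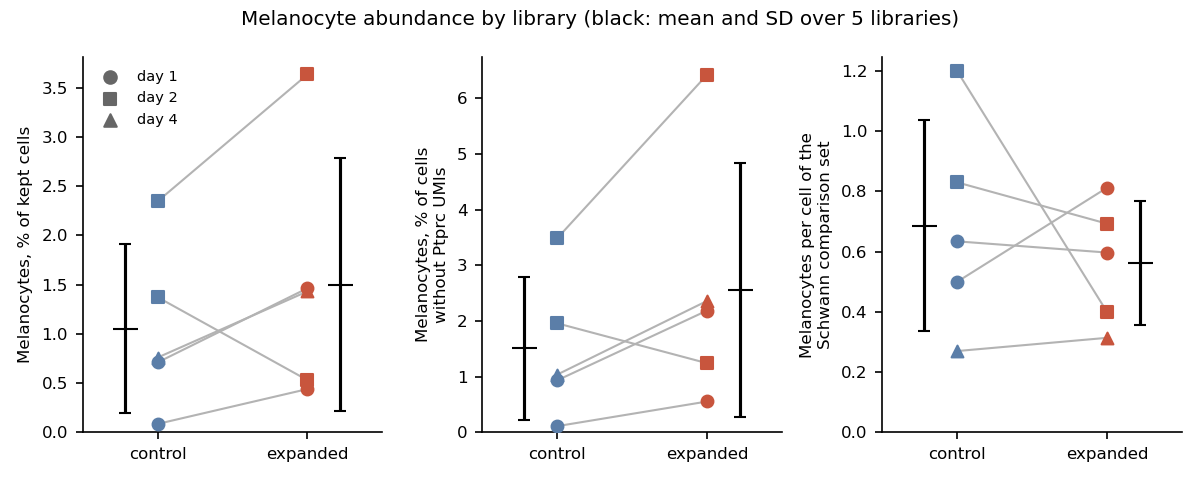
Melanocyte abundance in each library, as a percentage of kept cells, as a percentage of cells without Ptprc UMIs and per cell of the Schwann comparison set. Points are libraries with the shape giving the day, grey lines join the control and expanded library of a day and round, and black bars show mean and SD over 5 libraries; 4 of 5 lines rise in the left and middle panels and 2 of 5 in the right.

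Few genes of the melanocytes differed between arms, and Fn1, Tspan4 and Vcan had the largest rises in the fit. UMIs were summed over the melanocytes of each library with at least 10 of them, which left 4 control and 5 expanded libraries, since control day 1 round 1 had 5 members. With day as a covariate, 28 of 4778 tested genes (0.586%) passed an adjusted p of 0.05 in edgeR's quasi-likelihood test, 16 higher (0.335%) and 12 lower (0.251%) in expanded skin. At an unadjusted p under 0.05 there were 486 genes (10.2%), and the median log2 fold change of all tested genes was -0.01. Of the 28, 26 had 1 direction in all 4 complete pairs, and 2 of the lower genes, Pmel and Mlana, belong to the rule and are not counted as results. In 16 of the 28 the ranges of the arms did not overlap, against 2.39% of all tested genes.

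With day and round as a block, 18 genes passed, 14 higher and 4 lower, of which 17 were among the 28. Without the largest cell 42 passed, 21 in each direction, including 27 of the 28. Without the limit on keratin UMIs 8 passed, all among the 28: Fn1, Cyb5r3, Fdps, Rbm3, Cirbp, S100a6, Mgll and Creb5. Tspan4, Ifitm3, Sulf2 and Trpm1 were not called under that setting, with log2 fold changes of 1.68, 1.40, 1.23 and -2.85. Without cells that carried several hashtags, Slc45a2, Tenm4, Sap30, Hk2, Col3a1 and Cfap54 lost the call (adjusted p from 0.0528 to 0.197 in edgeR). The count fell to 13 without expanded day 4 and to 14 without control day 4. In all 9 fits that left out 1 library, 8 genes kept the call: Fn1, Tspan4, Ifitm3, Fdps, Cyb5r3, Sulf2 and Rbm3 among the higher genes and Trpm1 among the lower.

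Fn1, which encodes the matrix protein fibronectin, had the largest log2 fold change among the higher genes in this fit; Fdps was above it without the largest cell (2.1 against 2.03) and after thinning (2.41 against 1.85). Fn1 stood at 145, 66.8, 110.3 and 101 CPM in the control libraries and 364, 333, 511, 482 and 687 CPM in the expanded libraries. Every expanded library lay above every control library, and the highest value came from expanded day 4. The means were 106 ± 32.05 CPM (SD, n = 4) against 475 ± 140.2 CPM (SD, n = 5), with a log2 fold change of 2.06 (SE 0.25; adjusted p = 4.73e-04 in edgeR). Fn1 was also higher in all 4 complete pairs and remained called with the block (adjusted p = 0.00221) and after each cell was thinned to 2000 UMIs (adjusted p = 8.34e-04).

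In the other cell groups of the same libraries Fn1 was lower or differed by less than the spread. Among cells with at least 1% collagen UMIs, Fn1 stood at 483 ± 135 CPM against 186 ± 96.03 CPM (control and expanded, SD, n = 5 each). It was lower in the expanded library of each of 5 pairs. The same held in cells with at least 1% keratin UMIs, called keratin-rich below (17.3 ± 6.47 CPM against 4.53 ± 1.096 CPM). In the Schwann comparison set it stood at 17.5 ± 17.5 CPM against 19.8 ± 31.8 CPM, and in cells with Ptprc at 186 ± 55.02 CPM against 209 ± 91.1 CPM, higher in 2 and 3 of 5 pairs. A difference of response between melanocytes and collagen-rich cells was not tested; between melanocytes and Schwann cells the interaction for Fn1 gave an edgeR adjusted p of 0.818.

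Tspan4, Sulf2 and Vcan rose as well. Tspan4, a tetraspanin of the cell membrane, stood at 21.2, 47.7, 44.1 and 15.98 CPM in the control libraries and 99.2, 109, 97.8, 149 and 120.0 CPM in the expanded libraries. All expanded libraries were above the 4 control libraries tested, with a log2 fold change of 2.0 (SE 0.28; adjusted p = 0.00213 in edgeR). The 5 melanocytes of control day 1 round 1, which were not tested, stood at 191 CPM, above every expanded library. Sulf2, an enzyme that trims sulfate from heparan sulfate outside the cell, stood at 102, 47.7, 147 and 83.1 CPM in the control libraries and 342, 264, 359, 297 and 276 CPM in the expanded libraries, again without overlap, with a log2 fold change of 1.5 (SE 0.25; adjusted p = 0.00721 in edgeR). After thinning to 2000 UMIs Sulf2 was not called (log2 fold change 0.96, adjusted p = 0.101 in edgeR). Vcan, the large proteoglycan versican, stood at 35.3, 38.2, 36.8 and 65.5 CPM in the control libraries and 44.1, 87.9, 54.3, 269.8 and 294 CPM in the expanded libraries. Its arms overlapped and the high values were those of expanded day 2 round 2 and day 4, with a log2 fold change of 1.91 (SE 0.35; adjusted p = 0.0129 in edgeR). The call for Vcan was lost without any 1 of control day 2 round 2, control day 4, expanded day 2 round 2 or expanded day 4, with an adjusted p of up to 0.0933.

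S100a6, a small calcium-binding protein, stood at 741, 1289, 956 and 797 CPM in the control libraries and 4848, 2075, 1957, 2317 and 2861 CPM in the expanded libraries. Expanded day 1 round 1 was highest and no expanded library fell to the control range, with a log2 fold change of 1.46 (SE 0.27; adjusted p = 0.0159 in edgeR). The call was lost without control day 1 round 2, control day 4 or expanded day 4 (adjusted p up to 0.0802 in edgeR). Lgals3bp, a secreted glycoprotein that binds galectin-3, was scarcer and stood at 15.5 ± 3.74 CPM (SD, n = 4) against 54.1 ± 26.6 CPM (SD, n = 5), with a log2 fold change of 1.77 (SE 0.38; adjusted p = 0.0333 in edgeR); it lost the call without any 1 of the 4 control libraries (adjusted p up to 0.192). A further 4 surface or secreted proteins rose by a log2 fold change between 1.19 and 1.28: Cd200, the ligand of an inhibitory receptor on immune cells, Cd59a, an inhibitor of the complement pore, Fxyd5, a regulator of the sodium pump, and Olfm1, a secreted olfactomedin. Their tested arms did not overlap, and their adjusted p ran from 0.0159 to 0.0378 in edgeR. In the 5 untested melanocytes of control day 1 round 1 Cd59a stood at 477 CPM, above every expanded library. With day and round as a block Cd200 and Cd59a were not called (adjusted p = 0.0898 and 0.0737 in edgeR), and after thinning to 2000 UMIs Cd200, Cd59a and Fxyd5 were not (adjusted p = 0.130, 0.130 and 0.307). Each lost the call in at least 3 of the 9 fits that left out 1 library.

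Ifitm3, Rbm3 and Cirbp were also among the higher genes. Ifitm3, an interferon-induced membrane protein, stood at 145, 286, 305 and 288 CPM in the control libraries and 992, 933, 967, 827 and 539 CPM in the expanded libraries. The expanded values lay above the 4 control values tested and were lowest on day 4, with a log2 fold change of 1.64 (SE 0.27; adjusted p = 0.00721 in edgeR). Rbm3 and Cirbp encode RNA-binding proteins that rise with mild cold. Rbm3 stood at 582, 458, 572 and 952 CPM in the control libraries and 1047, 1097, 1424, 1459.7 and 2254 CPM in the expanded libraries, with a log2 fold change of 1.17 (SE 0.19; adjusted p = 0.00551 in edgeR). Cirbp stood at 70.6, 38.2, 62.5 and 70.3 CPM in the control libraries and 386, 191, 97.8, 197 and 186 CPM in the expanded libraries, with a log2 fold change of 1.53 (SE 0.28; adjusted p = 0.0159 in edgeR). For both genes the tested arms did not overlap; expanded day 4 was highest for Rbm3 and expanded day 1 round 1 for Cirbp. The 5 untested melanocytes of control day 1 round 1 stood at 605 CPM of Ifitm3 and 1178 CPM of Rbm3, each above the lowest expanded library. Cirbp lost its call without control day 1 round 2 or without expanded day 2 round 2 (adjusted p up to 0.0933).

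Fdps, which makes farnesyl diphosphate on the way to cholesterol, stood at 24.7, 38.2, 71.7 and 94.3 CPM in the control libraries and 55.1, 81.8, 315, 259.7 and 250.2 CPM in the expanded libraries. The high values came from days 2 and 4 of expanded skin, and day 1 lay within the control range, with a log2 fold change of 1.71 (SE 0.27; adjusted p = 0.00473 in edgeR). Cyb5r3, a reductase that takes part in lipid desaturation, rose (135 ± 33.7 CPM (SD, n = 4) against 404 ± 113 CPM (SD, n = 5)), with a log2 fold change of 1.55 (SE 0.22; adjusted p = 0.00213 in edgeR) and no overlap of the arms. After thinning to 2000 UMIs its log2 fold change was 0.98 and it was not called (adjusted p = 0.0589 in edgeR). Gas7, the remaining higher gene, was higher in 3 of 4 complete pairs, and its arms overlapped (35.1 ± 18.4 CPM (SD, n = 4) against 106 ± 49.3 CPM (SD, n = 5)). With the untested control day 1 round 1 included, its control mean was 72.6 ± 85.5 CPM (SD, n = 5). Gas7 lost the call without the keratin limit, and without control day 1 round 2 or control day 4. It also lost it without expanded day 1 round 2, expanded day 2 round 2 or expanded day 4.

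Several of these genes were higher in expanded skin in other cells too. Rbm3, Cirbp, Fdps and Ifitm3 were each higher in the expanded library of 5 of 5 pairs in the Schwann comparison set, in keratin-rich cells, in collagen-rich cells and in cells with Ptprc. In Schwann cells Rbm3 stood at 229 ± 68.9 CPM against 949 ± 145 CPM and Ifitm3 at 671 ± 152 CPM against 1310.0 ± 442 CPM (SD, n = 5 each). Sulf2 was higher in 4 of 5 pairs of the Schwann comparison set (26.7 ± 19.1 CPM against 49.9 ± 12.5 CPM), as in melanocytes, and lower in expanded skin in 5 of 5 pairs of collagen-rich cells (308 ± 39.1 CPM against 158 ± 76.4 CPM) and of cells with Ptprc. Tspan4 was higher in 5 of 5 pairs of Schwann cells, collagen-rich cells and cells with Ptprc. In keratin-rich cells it was higher in 2 of 5. Cyb5r3 was higher in 5 of 5 pairs of each group but cells with Ptprc, where 3 of 5 were. S100a6 was higher in 4 or 5 of 5 pairs of each group. Vcan was higher in 4 of 5 Schwann pairs and 5 of 5 with Ptprc, but in 3 of 5 collagen-rich and 1 of 5 keratin-rich. Fxyd5 and Cd200 were higher in 5 of 5 pairs of collagen-rich cells and of cells with Ptprc. Lgals3bp was so in 4 and 5 of 5, and Olfm1 in 5 and 1 of 5. In the Schwann comparison set Fxyd5 was higher in 4 of 5 pairs, Lgals3bp and Olfm1 in 3 and Cd200 in 1. For keratin-rich cells the counts were 4 of 5 for Cd200, 3 for Lgals3bp, 2 for Fxyd5 and 1 for Olfm1. Cd59a was higher in 2 or 3 of 5 pairs of each group. These contrasts between cell groups were not tested.

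**Figure D2:**
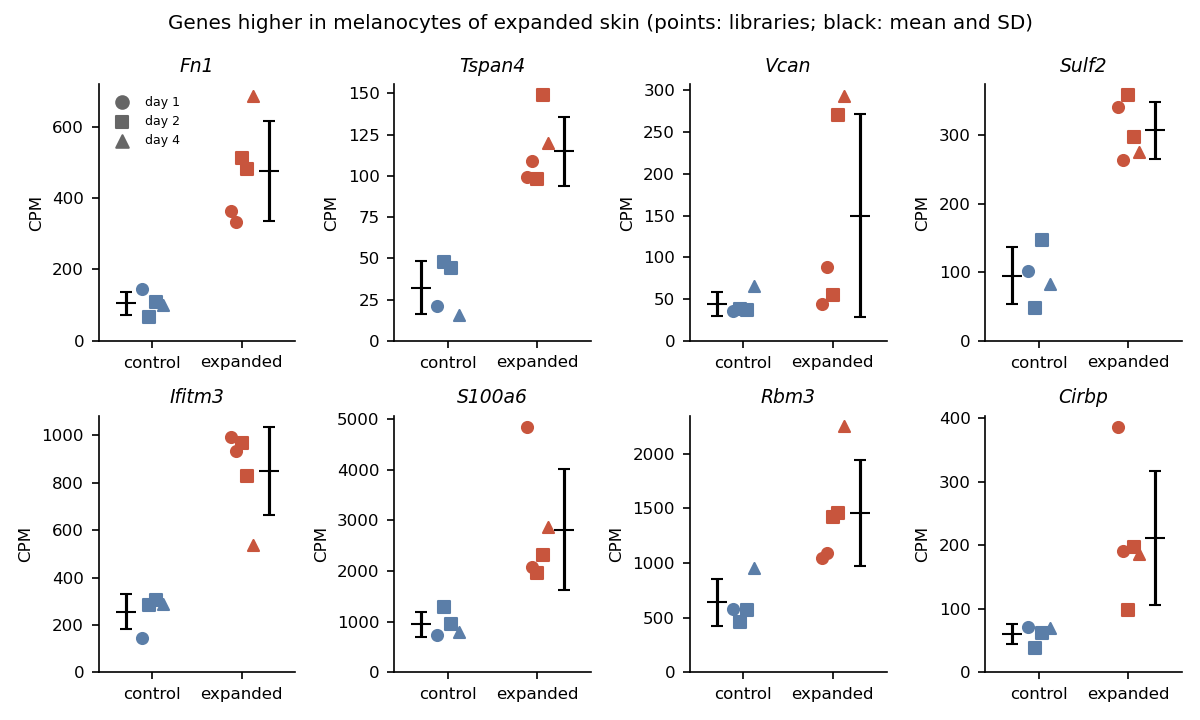
CPM of 8 genes in the summed melanocytes of 4 control and 5 expanded libraries, on linear axes from 0. Points are libraries with the shape giving the day, and black bars show mean and SD; for each gene but Vcan the expanded points lie above all control points shown.

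Of 18 genes for pigment enzymes and the melanosome membrane, 10 were tested, 0 were called higher and 3 lower, beside 0.251% of all tested genes called lower, with a median log2 fold change of -0.39 against -0.01 over all tested genes. The called genes were Trpm1, a cation channel named melastatin, Slc24a5, a cation exchanger of the pigment pathway, and Slc45a2, a transporter needed for melanosome pH. Trpm1 stood at 2108, 105, 130.5 and 337 CPM in the control libraries and 88.1, 63.6, 76.1, 68.1 and 97.00 CPM in the expanded libraries. The arms did not overlap, though the lowest control library was close to the highest expanded one and control day 1 round 2 was far above all others. The fit gave a log2 fold change of -2.63 (SE 0.46; adjusted p = 0.00973 in edgeR). The 5 untested melanocytes of control day 1 round 1 stood at 1178 CPM of Trpm1 and 859 CPM of Tyr.

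Slc24a5 stood at 1161, 325, 142 and 257 CPM in the control libraries and 297, 188, 65.2, 88.2 and 209 CPM in the expanded libraries, with a log2 fold change of -1.51 (SE 0.30; adjusted p = 0.0203 in edgeR). Slc45a2 stood at 219, 57.3, 75.3 and 86.3 CPM in the control libraries and 88.1, 27.3, 10.9, 37.8 and 51.1 CPM in the expanded libraries, with a log2 fold change of -1.51 (SE 0.32; adjusted p = 0.0333 in edgeR). Both were lower in all 4 complete pairs, and in both the arms overlapped. Tyr stood at 925, 219.6, 156 and 315 CPM in the control libraries and 209, 164, 130.4, 156 and 209 CPM in the expanded libraries and did not pass, with a log2 fold change of -1.16 (SE 0.29; adjusted p = 0.0785 in edgeR); without the largest cell its adjusted p was 0.0303 (edgeR, log2 fold change -1.27). Gpnmb, a melanosome glycoprotein, had a log2 fold change of -0.69 (SE 0.21; adjusted p = 0.198 in edgeR). Cd63, Gpnmb and Mif were the list's most abundant genes, and Cd63 stood at 2482 ± 689 CPM (SD, n = 4) against 2779 ± 277 CPM (SD, n = 5).

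Leaving out control day 1 round 2 moved all these values. Without it Trpm1 stayed called in edgeR (log2 fold change -1.4, adjusted p = 0.0374), while Slc24a5 (log2 fold change -1.03, adjusted p = 0.258) and Slc45a2 (log2 fold change -1.12, adjusted p = 0.314) were not called and Tyr was not called either (log2 fold change -0.55, adjusted p = 0.566). Slc24a5 also lost its call without control day 2 round 1 or expanded day 1 round 2. Slc45a2 also lost its call without any 1 of the other control libraries tested. The same held for Slc45a2 without expanded day 1 round 2, expanded day 2 round 1 or expanded day 4. With day and round as a block, Slc45a2 passed in edgeR (adjusted p = 0.0467) and Trpm1 and Slc24a5 did not (adjusted p = 0.0528 and 0.0663). After thinning to 2000 UMIs Slc24a5 was not called (adjusted p = 0.113 in edgeR). DESeq2 called Slc24a5 (adjusted p = 0.00330) but neither Trpm1 (adjusted p = 0.0946) nor Slc45a2 (adjusted p = 0.0581).

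Promoters of 4 pigment genes are shown because these genes were lower or near the threshold together, or chose the cells. MITF binds the sequence CATGTG, which on the other strand reads CACATG, most strongly within the longer M-box, in which AGT stands before it and CT after it. The 250 bases before the start of 4 pigment genes are shown, from RefSeq on GRCm38.p6, each read along its own gene from 5′ to 3′ with CATGTG or CACATG in capitals.
Tyr (chr7:87493513-87493762, minus strand): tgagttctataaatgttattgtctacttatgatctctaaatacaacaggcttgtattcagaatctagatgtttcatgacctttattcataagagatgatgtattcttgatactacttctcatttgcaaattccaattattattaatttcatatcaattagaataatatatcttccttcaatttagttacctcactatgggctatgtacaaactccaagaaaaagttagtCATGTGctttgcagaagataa
Tyrp1 (chr4:80833963-80834212, plus strand): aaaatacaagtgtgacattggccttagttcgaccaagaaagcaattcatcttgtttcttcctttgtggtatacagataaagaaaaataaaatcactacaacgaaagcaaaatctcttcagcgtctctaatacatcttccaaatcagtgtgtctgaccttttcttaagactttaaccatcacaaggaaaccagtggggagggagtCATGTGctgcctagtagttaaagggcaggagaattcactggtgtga
Slc24a5 (chr2:125067877-125068126, plus strand): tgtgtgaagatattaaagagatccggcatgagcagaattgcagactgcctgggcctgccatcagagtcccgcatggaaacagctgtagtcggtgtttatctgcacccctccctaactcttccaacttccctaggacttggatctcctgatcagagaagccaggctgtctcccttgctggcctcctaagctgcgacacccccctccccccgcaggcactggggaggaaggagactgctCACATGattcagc
Trpm1 (chr7:64153585-64153834, plus strand): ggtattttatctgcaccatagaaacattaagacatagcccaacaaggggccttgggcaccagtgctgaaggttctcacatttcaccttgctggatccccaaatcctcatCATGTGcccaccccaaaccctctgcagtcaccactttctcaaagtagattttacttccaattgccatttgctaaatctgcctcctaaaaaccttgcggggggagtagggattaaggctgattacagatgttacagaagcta
The element began 21 bases before the start in Tyr, 46 in Tyrp1, 13 in Slc24a5 and 141 in Trpm1. In Tyr and Tyrp1 it lay within the full M-box, which therefore overlaps the shorter element. Of 32851 promoter windows of the same length, 12.3% held CATGTG on either strand and 7 (0.0213%) held the M-box on either strand. A second listed start of Trpm1 (chr7:64185209-64185458) held neither. Dct held the short element 2 times, Mgll 1 time in 1 of its 2 windows, and the windows of Tspan4, Vcan, Cirbp, Ifitm3 and Sulf2 held none. Slc45a2, Pmel, Mlana, Fn1, Rbm3 and Fdps were not matched in the table. A match is a description of letters, not a binding site.

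High melanosome counts were concentrated in a few cells. Each cell with at least 2000 UMIs was thinned to 2000, which kept 482 melanocytes, and the UMIs of Tyr, Slc45a2, Slc24a5 and Trpm1 were added up in it. In control day 1 round 2, 13 of 50 cells had at least 5 such UMIs, and in control day 4, 11 of 56; the other control libraries had 1 of 4, 2 of 23 and 4 of 126. The expanded libraries had 1 of 13, 2 of 76, 0 of 18, 0 of 69 and 4 of 47 such cells. The share thus averaged 14.4 ± 10.3% (SD, n = 4) in the control libraries with at least 10 melanocytes and 3.77 ± 4.11% (SD, n = 5) in the expanded libraries, and the ranges, 3.17% to 26.0% and 0% to 8.51%, overlapped. Among cells below 5 UMIs the mean was 0.771 ± 0.0798 UMIs in control and 0.711 ± 0.219 in expanded libraries. Cells with no UMI of the 4 genes made 44.6 ± 9.87% and 55.5 ± 12.7%. Trpm1, Slc24a5 and Slc45a2 were called lower in expanded skin in these same libraries, and Tyr was near the threshold of a call. A lower share in the expanded libraries therefore follows in part from the choice of genes. The threshold of 5 was chosen after the values were seen, and these shares carry no test. A count of 0 in 69 cells allows a share of up to 4.35%.

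**Figure D3:**
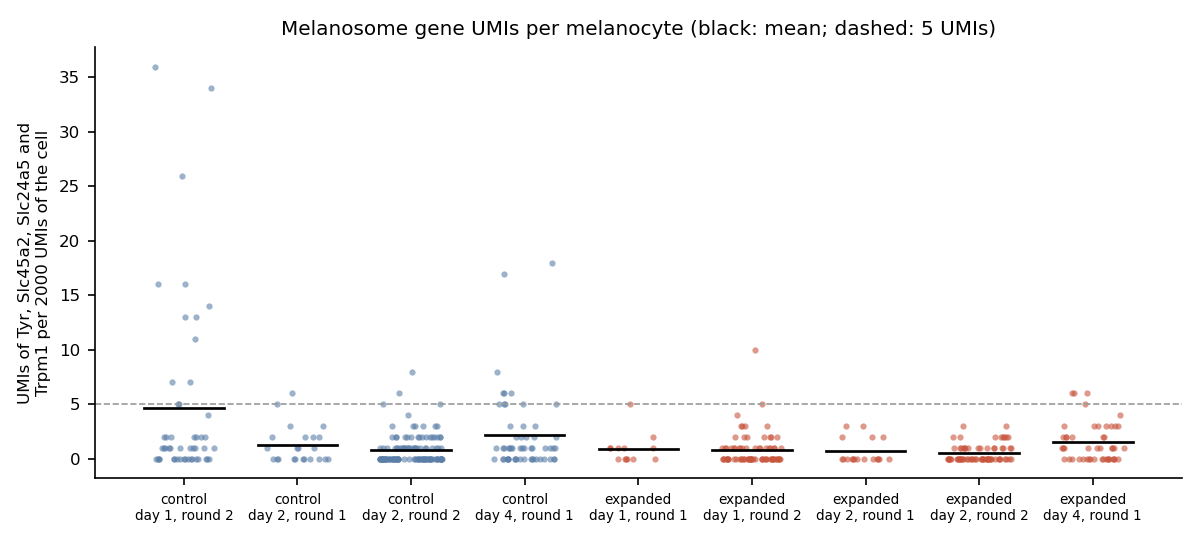
UMIs of Tyr, Slc45a2, Slc24a5 and Trpm1 together in each melanocyte after thinning to 2000 UMIs, by library. Points are cells with sideways scatter, black lines are library means and the dashed line marks 5 UMIs; the highest cells, up to 36 UMIs, belong to control day 1 round 2.

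The other lower genes had varied roles. Mgll, which breaks down monoacylglycerols, stood at 1423, 678, 456 and 502 CPM in the control libraries and 606, 388, 228, 320.2 and 327 CPM in the expanded libraries, with a log2 fold change of -1.14 (SE 0.22; adjusted p = 0.0159 in edgeR). Tenm4, a teneurin that spans the cell membrane, stood at 127, 76.4, 82.7 and 79.9 CPM in the control libraries and 55.1, 45.4, 21.7, 40.3 and 28.1 CPM in the expanded libraries, without overlap, with a log2 fold change of -1.4 (SE 0.27; adjusted p = 0.0159 in edgeR). Both were lower in 4 of 4 complete pairs. Both lost the call without control day 1 round 2 and with at least 20 members per library. Tenm4 also lost it without control day 4 (adjusted p = 0.150 in edgeR) or expanded day 4 (adjusted p = 0.113 in edgeR). Sap30, part of a histone deacetylase complex, was also lower without overlap (98.9 ± 34.8 CPM (SD, n = 4) against 43.04 ± 15 CPM (SD, n = 5)) and lost the call in 8 of the 9 fits that left out 1 library. Hk2 (hexokinase of glycolysis), Creb5 (a transcription factor) and Cfap54 (a protein of cilia) were lower in each complete pair with overlapping arms, and each lost the call in at least 4 of the 9 fits that left out 1 library. Hk2 was not called without the largest cell (edgeR adjusted p = 0.105). In collagen-rich cells Creb5 stood at 265 ± 23.9 CPM against 75.1 ± 42.5 CPM and Hk2 at 271 ± 105 CPM against 132 ± 24.2 CPM (SD, n = 5 each). Both were higher in expanded skin in 0 of 5 of those pairs, as was Creb5 in Schwann and keratin-rich cells. Hk2 was higher in 2 of 5 Schwann pairs. Mgll stood at 300 ± 59.1 CPM against 288 ± 56.7 CPM in Schwann cells (SD, n = 5 each). Differences between these cell groups were not tested.

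**Figure D4:**
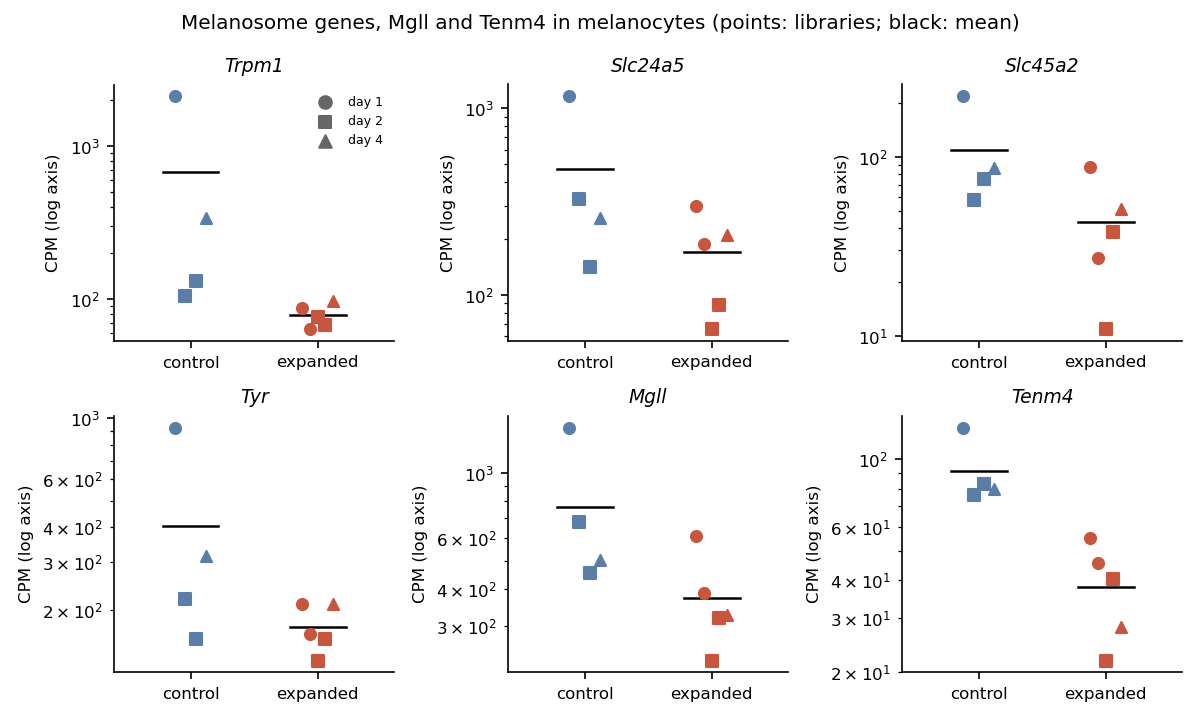
CPM of Trpm1, Slc24a5, Slc45a2, Tyr, Mgll and Tenm4 in the summed melanocytes of each library, on log axes. Points are libraries with the shape giving the day, and black lines are arm means; control day 1 round 2 is the highest point in each of the 6 panels, and the arms separate for Trpm1 and Tenm4.

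Of 14 lineage regulators 8 were tested and 0 were called, where 0.586% of all tested genes were called, a share too small for a list of this size to show a lack of change. All 8 had a positive log2 fold change, with a median of 0.31 against -0.01 over all tested genes. Mitf stood at 427, 382, 540.3 and 235 CPM in the control libraries and 485, 409, 598, 529 and 403 CPM in the expanded libraries. Its arms overlapped, with a log2 fold change of 0.25 (SE 0.20; adjusted p = 0.735 in edgeR). Sox10 had a log2 fold change of 0.87 (SE 0.28; adjusted p = 0.236 in edgeR), Pax3 had a log2 fold change of 0.31 (SE 0.27; adjusted p = 0.767 in edgeR) and Zeb2 had a log2 fold change of 0.31 (SE 0.27; adjusted p = 0.777 in edgeR). Of 24 genes that build or move melanosomes 12 were tested and 0 were called, with a median of -0.32; Myo5a, the motor that carries melanosomes, was the most abundant.

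Of 30 receptors for survival and guidance signals 18 were tested and 0 were called, beside 0.586% of all tested genes. Kit stood at 431, 458, 662 and 329 CPM in the control libraries and 914, 333, 565, 666 and 370.1 CPM in the expanded libraries. No arm stood apart, with a log2 fold change of 0.17 (SE 0.26; adjusted p = 0.885 in edgeR), and Kit was -0.05 with day and round as a block. Ednrb had a log2 fold change of -0.59 (SE 0.22; adjusted p = 0.327 in edgeR) and Erbb3, a neuregulin receptor, had a log2 fold change of 0.63 (SE 0.25; adjusted p = 0.361 in edgeR). The list's median log2 fold change was 0.09.

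Shares of cells with a UMI of 3 of these genes did not separate the arms at equal depth. After thinning to 2000 UMIs, 255 control and 223 expanded cells of the 9 libraries remained, and 28 and 13 shallower cells were left out. A UMI of Tyr was found in 31.4 ± 12.8% (SD, n = 4) and 30.6 ± 9.86% (SD, n = 5) of cells (exact permutation p = 0.857, adjusted over 4 shares p = 0.857). For Kit the shares were 49.99 ± 11.2% and 57.6 ± 12.1% (exact permutation p = 0.397, adjusted p = 0.794), and for Mitf 47.9 ± 5.03% and 50.7 ± 17.5% (exact permutation p = 0.714, adjusted p = 0.857). In the Schwann comparison set, which should lack Tyr, 0.131% of 766 thinned cells had a UMI of it. Without thinning Tyr was found in 44.8% and 46.9% of melanocytes, Kit in 63.2% and 73.6% and Mitf in 65.2% and 70.7%; the median depth was 3509.5 UMIs in control and 4596 in expanded melanocytes.

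UMIs of genes of cell division were rare in both arms. A UMI of Mki67, Top2a, Cdk1, Ube2c, Birc5 or Ccnb1 was found in 9 of 255 control and 4 of 223 expanded cells, or 2.83 ± 2.34% (SD, n = 4) and 1.43 ± 2.02% (SD, n = 5) by library. The difference was within the spread (exact permutation p = 0.397, adjusted p = 0.794), and the smallest p the test allows is 0.0159. The share was 1.83% in the Schwann comparison set and 9.72% in cells with Ptprc, at the same depth. Only 6 of 45 cell cycle genes passed the filter on low counts, and 0 were called, beside 0.586% of all tested genes.

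Several groups of genes that answer stress and injury gave 0 calls, where 0.586% of all tested genes were called. Of immediate early genes 24 of 27 were tested and 0 called, with a median log2 fold change of -0.03. Fos, the most abundant of them, stood at 1988, 6921, 5596 and 1787 CPM in the control libraries and 5046, 5644, 6250, 5059.8 and 3732 CPM in the expanded libraries; control day 1 round 2 and control day 4 were lowest, and the fit gave a log2 fold change of 0.53 (SE 0.25; adjusted p = 0.491 in edgeR). Among genes of NF-kappaB and inflammation 0 of 12 tested were called, among mechanical and actin genes, which include YAP targets and Piezo channels, 0 of 19, among adhesion genes 0 of 15, and among survival genes and cell cycle inhibitors 0 of 11. Their medians were -0.25, -0.08, 0.01 and 0.05. Cd9, a tetraspanin and the most abundant adhesion gene, had a log2 fold change of 0.54 (SE 0.20; adjusted p = 0.327 in edgeR) and, without the largest cell, an adjusted p of 0.0490.

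Other lists held calls, where 0.586% of all tested genes were called. Interferon and antigen presentation genes gave 1 call, Ifitm3, among 16 tested of 27, with a median of 0.20. B2m and H2-D1, genes of class I presentation, were the most abundant and were not called. Heat shock and stress genes gave 2 calls among 22 tested of 28, Rbm3 and Cirbp, while 17 of the 22 had a negative fold change and the median was -0.20. Hsp90ab1, Hspa8 and Mt1 were the list's most abundant genes and were not called. Glycolysis and hypoxia genes gave 1 call, Hk2, among 17 tested of 24, with a median of 0.11.

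Markers of other skin cells were present at low levels, and some moved with the arms. The summed level of 10 fibroblast markers ran from 1366 to 2387 CPM in control and from 391 to 3526 CPM in expanded melanocytes, with 0 of the 10 at 0. Of 7 tested, 1 was called, Col3a1, a fibrillar collagen, beside 0.586% of all tested genes. Col3a1 stood at 159, 305, 559 and 275 CPM in the control libraries and 88.1, 194, 32.6, 5.04 and 7.66 CPM in the expanded libraries. The arms overlapped and 3 of 4 complete pairs were lower, with a log2 fold change of -3.06 (SE 0.68; adjusted p = 0.0431 in edgeR). The call was lost in 6 of 9 fits that left out 1 library (adjusted p up to 0.260), while without control day 1 round 2 its log2 fold change was -5.38 (edgeR adjusted p = 5.32e-07). In collagen-rich cells Col3a1 stood at 24081 ± 4723 CPM against 13882 ± 2007 CPM (SD, n = 5 each) and was lower in expanded skin in 5 of 5 pairs. The part of fibroblast RNA in the melanocyte values was not tested.

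Schwann markers summed to 465 to 1172 CPM in control and 960 to 2071 CPM in expanded melanocytes, with Gfra3 at 0. Basal keratinocyte markers summed to 445 to 1819 CPM and 359 to 1324 CPM. Krt14, part of the rule, reached 799 CPM in control day 4, the library of the largest cell, and 9.55 to 102 CPM in the other libraries tested. Macrophage markers, mostly Apoe, summed to 1015 to 2167 CPM and 466.4 to 1421 CPM, and T cell markers to at most 55.9 CPM with Trac at 0. Of mast cell markers, Kit was the only one tested, and Fcer1a was at 0. Neutrophil markers, with Retnlg at 0, summed to 28.8 to 162 CPM and 54.5 to 171 CPM, endothelial markers to 9.55 to 156 CPM and 5.04 to 187 CPM, and pericyte and smooth muscle markers, with Myh11 at 0, to 36.8 to 52.95 CPM and 52.9 to 308 CPM.

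Suprabasal keratinocyte markers summed to 47.7 to 810 CPM in control and 54.3 to 1372 CPM in expanded melanocytes, with Dsc1 and Flg at 0. Markers of the hair shaft and matrix reached at most 201 CPM in control and 11.0 CPM in expanded melanocytes, with Krt31, Krt33a and Krtap3-1 at 0. For each of these lists the part in the melanocyte results was not tested.

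The response of melanocytes was also set against that of the Schwann comparison set of the same libraries. In a test of the interaction of cell type and arm, 1 of 6600 genes (0.0152%) was called in edgeR, Krt17, a keratin of follicles and injured epidermis. Krt17 stood at 409 CPM in control and 15.7 CPM in expanded melanocytes, and at 12.4 and 18.0 CPM in Schwann cells, with a log2 difference of -5.53 (SE 0.75, edgeR adjusted p = 0.00380). Without the largest cell 0 genes were called in edgeR, with 368 at an unadjusted p under 0.05. G0s2, Nes, Cd59a and S100a6 had the next smallest p, with adjusted p from 0.297 to 0.617 in edgeR. The fit of Schwann cells alone called 7 of 5610 genes (0.125%), which included Rbm3 (log2 fold change 2.01) and Cirbp (1.41).

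Clustering of 523 members, the largest cell left out, gave 5 clusters, described here by their leading genes and without a test. Cluster 1 (166 cells) was led by Creb5, Arid5b and Abl2. Cluster 2 (149 cells) was led by Fdps, Fxyd3 and Prkg2, followed by Fn1 and Cyb5r3, and had Rbm3 at 1585 CPM. Cluster 3 (119 cells) was led by Lgals7 and immediate early genes, with Fos at 12307 CPM. These 3 clusters had Kit at 602 to 667 CPM and Dct at 5572 to 8490 CPM.

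Cluster 4 (73 cells, from all 10 libraries) had the lowest Kit level of the 5. Kit stood at 46.1 CPM and was found in 13.7% of its cells, against 73.1% to 100% in the other clusters. Its leading genes were Gas7, Cryab (a small heat shock protein), Apod, Fxyd1 and Sparcl1. Cryab stood at 551 CPM against 26.1 CPM in the other members and Sparcl1 at 752 against 48.7 CPM. S100b stood at 367 CPM and Lgi4 at 351 CPM. Fibroblast markers were also high in it, with Col3a1 at 808 CPM against 97.4 CPM in the other members and Col1a2, part of the rule, at 565 CPM; their part in the cluster was not tested. It retained Dct at 5547 CPM and Tyr at 198 CPM, while Pmel stood at 293 CPM and Trpm1 at 20.8 CPM.

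Cluster 5 (16 cells, median 10978.5 UMIs) stood apart on pigment genes, those of the rule included. Trpm1 stood at 4152 CPM, Tyr at 1676 CPM, Pmel at 11483 CPM and Ptgds at 13574 CPM, with Oca2, a melanosome anion channel, and Gpr143, a melanosome receptor, among the leading genes. Fos stood at 63.3 CPM and Egr1 at 5.76 CPM. It drew on 4 libraries, and 62.5% of its cells came from a single library; a cell state and a feature of that library cannot be told apart. Cluster sizes were not compared between arms, since several leading genes differ between them.

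**Figure D5:**
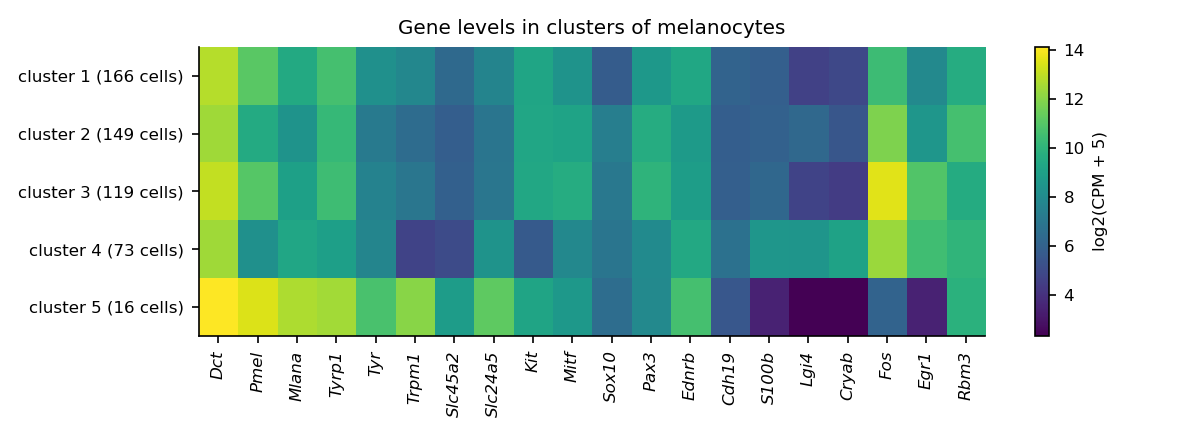
Levels of selected genes in the 5 clusters of melanocytes, as log2(CPM + 5) of the summed cells, with brighter colours for higher levels. Cluster 4 is dark for Kit and Trpm1 and bright for Lgi4 and Cryab, and cluster 5 is bright for Pmel, Mlana, Trpm1 and Slc24a5.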

How the data were processed

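The data comprised 10 mRNA libraries, 5 control and 5 expanded. Per the labels' protocols they were made with a 10x Genomics 3′ kit. The values are raw UMI counts as deposited, without normalization. The submitters' processing notes name Cell Ranger 6.1.2 and the build mm10. Libraries held 17726739 to 75470722 gene UMIs and 32285 genes. The antibody lists of the 8 hashing samples gave the hashtags by which cells were assigned to mice or marked as carrying several.

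Cells were filtered and chosen as the report states; the members and gene lists were chosen with earlier results of these data known. Melanocyte counts were summed per library with at least 10 members, passed through filterByExpr, given TMM factors and fitted in edgeR 4.0.16 (R 4.3.3; quasi-likelihood, Benjamini-Hochberg, day as covariate). SEs were derived from the log2 fold change and the F statistic. On simulated counts with 200 of 4778 genes changed, this recovered 49.0% of genes with a log2 change of 1 and 79.0% of those with 2, and 3.76% of calls were false. The changed genes were drawn only from genes above a minimum fitted count, so the recovery does not cover scarcer genes. Counts were simulated from the fitted dispersions, and no outlying cell or library was added. Day and sequencing round, given in the labels, pair the libraries; deviations of paired libraries correlated at 0.00419 to 0.300. Shares were compared by exact two-sided permutation tests (scipy 1.17.1). Clusters used scanpy 1.11.5 (1000 variable genes, 15 components, resolution 0.5).

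Named genes were the 10 highest and 10 lowest called genes by fold change with 1 direction in every pair, called and abundant genes of each list, the pigment and regulator lists, the rule genes and the top genes of the interaction; Gas7, Olfm1, Fxyd5, Cd59a, Cd200, Mgll and the genes of the clusters fall outside it and were named after their values were seen. Alternatives covered scaling, filters, DESeq2 1.42.0, cell rules, thinning, doublets and each library left out. The alternative without the largest cell was chosen after seeing the data. Floors and limits from a count of 0 (3 counts) cover counting error only.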

Additional observations from a re-analysis of the deposited data

Results flagged for a closer look

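Of 66 groups of libraries checked for an outlying value, 6 held one, where chance flags about 1 in 20. In control day 1 round 2, Trpm1 stood at 2108 CPM, with the next library at 337 CPM, Cfap54 at 208 CPM (next 51.1 CPM) and Tenm4 at 127 CPM (next 82.7 CPM). The same library had the lowest control value of Ifitm3, at 145 CPM, with the next at 286 CPM. Vcan in control day 4 stood at 65.5 CPM, above 38.2 CPM in the next control library. Creb5 in expanded day 4 stood at 56.2 CPM, above 22 CPM in the next.

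The response of Krt17 differed between melanocytes and the Schwann comparison set by a log2 fold change of -5.53 (edgeR interaction, adjusted p = 0.00380). Without the largest melanocyte of control day 4, no gene passed that test.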

How the results depend on the processing

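The 28 called genes became 147 without a filter on low counts, 18 with the day-and-round replicate block, 7 without the day covariate, 18 with at least 20 members per library and 8 without the keratin limit. Leaving out 1 library gave 13 to 38. Without the filter 44 were higher and 103 lower, and without the covariate 7 higher and 0 lower. DESeq2 called 29, thinning to 2000 UMIs 29 (12 higher, 17 lower, of 1690 tested), removal of cells with several hashtags 35 and the block without the largest cell 40. No setting reversed any of the 26 called genes outside the rule; over 580 values, 408 kept and 172 lost the call. Among 11 genes without a call, Kit (log2 fold change 0.17) changed sign with the block (-0.054), with at least 20 members (-0.046), without the keratin limit (-0.195) and with the block without the largest cell (-0.171), and ran from -0.0623 to 0.284 with 1 library left out. Sign also changed for Mitf (-0.123), Pax3 (-0.0219) and Zeb2 (-0.102) without the keratin limit. The cause was not tested.

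For the interaction with Schwann cells, thinning gave 0 calls, removal of the largest cell 0 and leaving out a pair 0 to 3. The difference in share of kept cells (expanded minus control, percentage points) was 0.445 and ran from -0.0881 to 0.768 with 1 library left out; expanded day 2 round 2 gave the negative value. The number of melanocytes per Schwann cell, -0.124 in the main analysis, became 0.0282 with doublets removed and -0.228 to 0.00467 with 1 library left out. The share of melanocytes with a UMI of cycling genes, -1.40 points, became 0.426 when thinned to 1000 UMIs. The share of melanocytes with a UMI of Tyr, -0.846 points, became 2.19 without thinning and ran from -4.97 to 2.97 with 1 library left out. The share of melanocytes with a UMI of Mitf, 2.86 points, became -3.69 with the replicate block and ran from -3.69 to 8.59. With the replicate block, exact sign-flip p was 0.312 for the share of kept cells, 0.188 for cells without Ptprc and 0.688 per Schwann cell, and 5 pairs allow none below 0.0625. In edgeR the block lost the calls of Cd200, Cd59a, Cfap54, Col3a1, Creb5, Hk2, Lgals3bp, Sap30, Slc24a5 and Trpm1, and kept those of the other 16 genes outside the rule. Of the cell cycle genes 6 of 45 passed the filter on low counts.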
